A study of Mus musculus with 12 samples.

Results

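Hormone receptor genes were followed in the mouse liver: Esr1 (estrogen receptor alpha), Prlr (prolactin receptor), Nr3c1 (glucocorticoid receptor), Thrb and Thra (thyroid hormone receptors beta and alpha). They are 5 of the 24527 genes in the count table, and all 5 had enough counts to be among the 13204 genes that were fitted. The genes were picked by name with their values in the 4 groups already known, Esr1 because its difference after IVF went opposite ways in females and males. Their levels and differences are therefore given as a description, without a test.

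The libraries came from poly-A RNA of the liver of mice aged 39 weeks, from crosses of CF1 females with B6SJL males. The 2 IVF groups, females and males, were conceived by in vitro fertilization (IVF), where egg and sperm meet in a dish and the embryo is then placed in a foster mother, by a protocol of the Jackson Laboratory. Natural females and natural males came from ordinary mating and give the background level of each gene. Each group had 3 libraries, 12 in all, and the labels name no further treatment or altered gene in any group. The question was how IVF affects the adult liver and whether females and males differ in that.

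Total counts of IVF females ranged from 6826534 to 22073863 and those of natural females from 8056230 to 23430136. Those of IVF males ranged from 14002847 to 21762008 and those of natural males from 23448074 to 27832271. The smallest totals belonged to IVF female replicate 1 and natural female replicate 2, 1 library in each female group, and values without them are given where they matter. Levels are in CPM, the count of a gene relative to the library total after TMM scaling between libraries. Counting error alone means that a count of 0 still allows 0.445 CPM in the library of smallest total and 0.119 CPM in that of largest total. Group means are given with their SD over n = 3 libraries. The 5 receptors had at least 98 counts in every library. Summed hepatocyte markers such as albumin took 82346 to 121880 CPM. Nothing in the labels says more of the libraries of a group than that they are separate samples, so p-values below measure the spread between these samples.

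Estrogen receptor alpha, the glucocorticoid receptor and the thyroid hormone receptors are nuclear receptors: each binds a small hormone and then, at short DNA motifs, raises or lowers transcription. The prolactin receptor is a cell surface receptor of the cytokine receptor family that signals through the kinase JAK2 and the transcription factor STAT5. The liver is a target of all these hormones. Prlr is known for its higher level in female than in male rodent liver, estrogen receptor alpha for its part in hepatic lipid metabolism, Nr3c1 for the induction of gluconeogenic genes, and Thrb as the main thyroid hormone receptor of hepatocytes.

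Sequences around motif matches are shown first, since Esr1 and Prlr are the receptors whose groups differed below, and a match shows which letters their start sites hold. The windows run from 250 bases before to 50 bases after a RefSeq start site (GRCm38.p6). The table gave 2 windows for Esr1, 3 for Prlr and 2 for Thrb, and the other genes are not shown. Both strands were searched for 6 motifs: the estrogen response element GGTCANNNTGACC, the glucocorticoid response element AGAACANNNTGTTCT, its 6-base core AGAACA, the nuclear receptor core AGGTCA, the thyroid response element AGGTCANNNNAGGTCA, and the STAT5 site TTCNNNGAA. The core AGGTCA lies inside the thyroid response element and AGAACA inside the glucocorticoid response element. The estrogen response element as searched holds GGTCA without the leading A. The matches follow, 5′ to 3′ on the plus strand, with the motif in capitals.
Esr1 STAT5 site, chr10:4709960-4709989: ctggagtttcTTCTAGGAAtgctgattcta
Prlr STAT5 site, chr15:10223786-10223815: gcaaaatgagTTCTAGGAAtaagggatatc
Prlr steroid receptor core, other strand, chr15:10223882-10223911: gctgtgagtggcTGTTCTaggggactgcag
Thrb nuclear receptor core, chr14:17660764-17660793: aggagagttgacAGGTCAagggaatagggc
Thrb steroid receptor core, chr14:17981625-17981654: cttcacggcagcAGAACAgcaggagagctt
Thrb steroid receptor core, other strand, chr14:17981609-17981638: cagccctaagtcTGTTCTtcacggcagcag
The second Esr1 window and the second Prlr window each held a STAT5 site with the same letters, TTCTAGGAA, at offsets of -188 and -110 from the start site. STAT5 sites were in 8.3% of all 32851 windows of this length, AGGTCA in 16.3% and AGAACA in 19%. The full estrogen, thyroid and glucocorticoid elements were in 0.07%, 0.0152% and 0.00913% of windows and in none of those of Esr1, Prlr and Thrb. These matches are descriptions of letters, not evidence of binding.

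Esr1 lies on chromosome 10 (4611593 to 5005614, plus strand, GRCm38, ENSMUSG00000019768.16), with 13661 exon bases. Its mRNA was most abundant in IVF females, at 67.2, 74.3 and 68.5 CPM in replicates 1 to 3. Natural females had 37.9, 27.6 and 37.2 CPM. Every IVF female thus lay above every natural female, and the means were 70 ± 3.79 and 34.2 ± 5.76 CPM, a ratio of 2.05. The 3 IVF females were within a few CPM of each other. In males the order was the other way round. IVF males had 16.8, 14.0 and 10.5 CPM, and natural males had 17.4, 22.6 and 26.9 CPM. The means were 13.8 ± 3.13 and 22.3 ± 4.79 CPM, a ratio of 0.618. The male groups did not overlap, but the gap between IVF male replicate 1 and natural male replicate 1 was narrow. In bulk liver, fewer cells of a type and less RNA per cell cannot be told apart.

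On the log2 scale the Esr1 difference, IVF minus natural, was 1.03 ± 0.22 (SE) in females and -0.70 ± 0.22 (SE) in males. The male difference minus the female difference was -1.73 ± 0.31 (SE). Leaving out the females with the smallest totals gave 0.94 in females and -1.65 for the difference between the sexes. By library size alone, without TMM scaling, IVF males ranged from 9.65 to 17.4 CPM and natural males from 15.7 to 24.5 CPM. These ranges overlap, so the separation of the male groups depends on the scaling. That scaling shifted the median male difference over all genes from 0.0098 to 0.14. Of the 5 receptors, 1 did not overlap between IVF and natural females, where 7.42% of all fitted genes did not, and 1 did not between the male groups, where 8.91% did not. Across all fitted genes 78, or 0.591%, were apart in both sexes in opposite directions, and 42 in the same direction. Esr1, which was chosen for this pattern, was 1 of 33 that were higher in IVF females and lower in IVF males. By library size alone 107 genes were apart in opposite directions and 67 in the same direction. Esr1 was not among them.

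Esr1 was higher in females than in males, and the gap was wider in IVF animals. The female mean was 1.54 times the male mean in natural animals and 5.09 times in IVF animals. The log2 difference, male minus female, was -0.62 ± 0.22 (SE) in natural and -2.35 ± 0.23 (SE) in IVF animals. In the natural groups the highest male, at 26.9 CPM, lay just below the lowest female, at 27.6 CPM. In the IVF groups the highest male had 16.8 CPM and the lowest female 67.2 CPM. Over the 12 libraries Esr1 spanned a 7.07-fold range, from 10.5 to 74.3 CPM.

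A ratio of counts within a library does not depend on how libraries are scaled. Counts of Esr1 over those of Nr3c1 were 0.413 to 0.453 in IVF females and 0.198 to 0.242 in natural females. IVF males had ratios of 0.0683 to 0.133 and natural males of 0.111 to 0.197. The female groups were again apart, and the male groups overlapped.

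**Figure D1:**
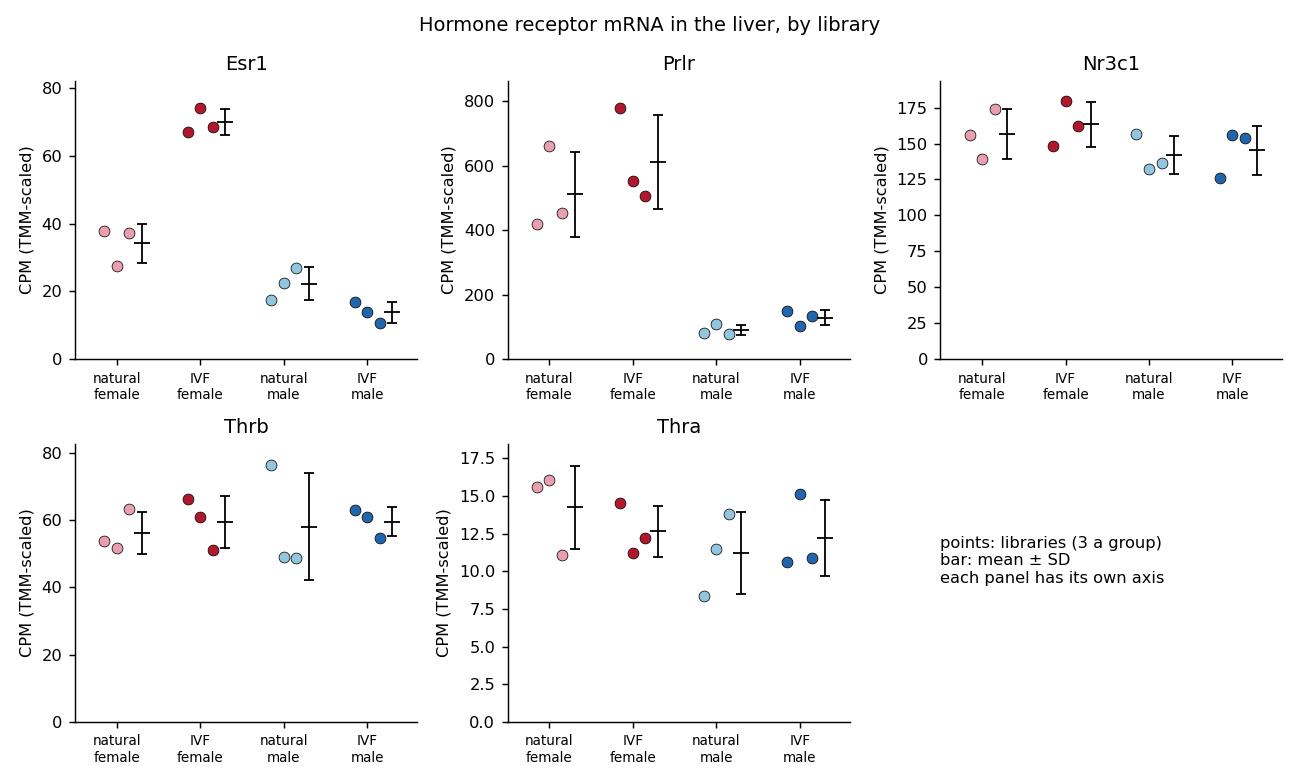
Level of each receptor mRNA in each library, in CPM scaled by TMM, with 1 point per library (3 a group), the mean and the SD. Each panel has its own axis from 0: Esr1 is highest in the 3 IVF females (67.2 to 74.3 CPM), Prlr is higher in all 6 females than in all 6 males, and Nr3c1, Thrb and Thra overlap between all groups on this scale.

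Prlr lies on chromosome 15 (10177238 to 10349180, plus strand, ENSMUSG00000005268.20) with 15339 exon bases. Natural females had 419, 661 and 454 CPM and IVF females 779, 552 and 506 CPM. Natural males had 82.1, 108 and 78.3 CPM and IVF males 148, 104 and 134 CPM. Every female library lay above every male library, by a wide margin. The highest values in each female group came from the libraries with the smallest totals. Group means were 511 ± 131 CPM in natural females, 612 ± 146 in IVF females, 89.6 ± 16.4 in natural males and 129 ± 22.5 in IVF males.

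The female mean of Prlr was 5.71 times the male mean in natural animals and 4.76 times in IVF animals. The log2 difference, male minus female, was -2.51 ± 0.26 (SE) in natural and -2.25 ± 0.26 (SE) in IVF animals, or -2.30 and -2.07 without the libraries of smallest total. On the TMM scale, Esr1 and Prlr were the 2 receptors of 5 whose sexes did not overlap, in natural as in IVF animals. Among all fitted genes 20% and 21.8% did not overlap in these comparisons. Scaled by library size alone, Nr3c1 and Thra were also lower in all natural males than in all natural females, where 28.5% of fitted genes did not overlap and the median of all genes was -0.34. For IVF against natural, Prlr groups overlapped in both sexes, with log2 differences of 0.26 ± 0.25 (SE) in females and 0.52 ± 0.25 (SE) in males. The female value fell to 0.07 without IVF female replicate 1 and rose to 0.49 without natural female replicate 2. By library size alone the male groups were apart, at 101 to 154 CPM in IVF males and 71.2 to 92.6 CPM in natural males. Esr1 and Prlr thus shared their direction between the sexes, and in males their IVF differences had opposite signs. The long and short receptor forms made from Prlr were summed in these gene counts.

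Nr3c1 lies on chromosome 18 (39410545 to 39519421, minus strand, ENSMUSG00000024431.15) with 7684 exon bases. Natural females had 156, 139 and 174 CPM, IVF females 148, 180 and 162 CPM, natural males 157, 133 and 137 CPM, and IVF males 126, 156 and 154 CPM. On this TMM scale all groups overlapped, and the whole range over 12 libraries was 1.43-fold. Natural males, at 113 to 142 CPM, lay below natural females, at 144 to 210 CPM, when scaled by library size alone. Group means were 157 ± 17.5 CPM in natural females, 163 ± 15.8 in IVF females, 142 ± 13 in natural males and 145 ± 16.8 in IVF males. The log2 difference, IVF minus natural, was 0.06 (95% interval -0.27 to 0.39) in females and 0.03 (-0.30 to 0.36) in males. Male minus female it was -0.14 (-0.47 to 0.19) in natural and -0.17 (-0.50 to 0.16) in IVF animals. The spread within groups, an SD of 0.15 on the log2 scale, was at the 8.07th percentile of the fitted genes that averaged 5 CPM or more.

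Thrb lies on chromosome 14 (17660261 to 18038090, plus strand, ENSMUSG00000021779.17) with 7403 exon bases. Its levels were 53.8, 51.7 and 63.4 CPM in natural females and 66.2, 61 and 51.2 CPM in IVF females. Natural males had 76.4, 49.0 and 48.8 CPM and IVF males 63.0, 60.9 and 54.8 CPM. No groups were apart, and natural male replicate 1 was the highest library. Group means lay between 56.3 ± 6.24 CPM in natural females and 59.6 ± 4.27 CPM in IVF males. The log2 difference, IVF minus natural, was 0.08 (95% interval -0.32 to 0.47) in females and 0.04 (-0.36 to 0.43) in males. Without natural male replicate 1 the male value was 0.28, and the natural sex difference moved from 0.04 to -0.20.

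Thra lies on chromosome 11 (98740638 to 98769006, plus strand, ENSMUSG00000058756.13) with 4614 exon bases. Natural females had 15.6, 16.1 and 11.1 CPM and IVF females 14.5, 11.2 and 12.2 CPM. Natural males had 8.36, 11.5 and 13.8 CPM and IVF males 10.6, 15.2 and 10.9 CPM. All groups overlapped on this TMM scale, while by library size alone natural males (7.55 to 12.5 CPM) lay below natural females (13.4 to 16.6 CPM). The log2 difference, IVF minus natural, was -0.18 ± 0.24 (SE) in females and 0.13 ± 0.24 (SE) in males, and male minus female it was -0.34 ± 0.24 (SE) in natural and -0.04 ± 0.24 (SE) in IVF animals. The 3′ end of Thra overlaps Nr1d1, which encodes the clock repressor REV-ERB alpha on the opposite strand, by 263 exon bases. Whether strand was used in counting is not given in the sources used here, so reads in that stretch cannot be assigned. Nr1d1 had 104 ± 20.5 CPM in natural females, 104 ± 29.5 in IVF females, 60.7 ± 13.7 in natural males and 89.9 ± 18.8 in IVF males. Its natural males lay below its natural females, with a log2 difference of -0.78 ± 0.26 (SE) and an adjusted p of 0.176 in edgeR's test.

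**Figure D2:**
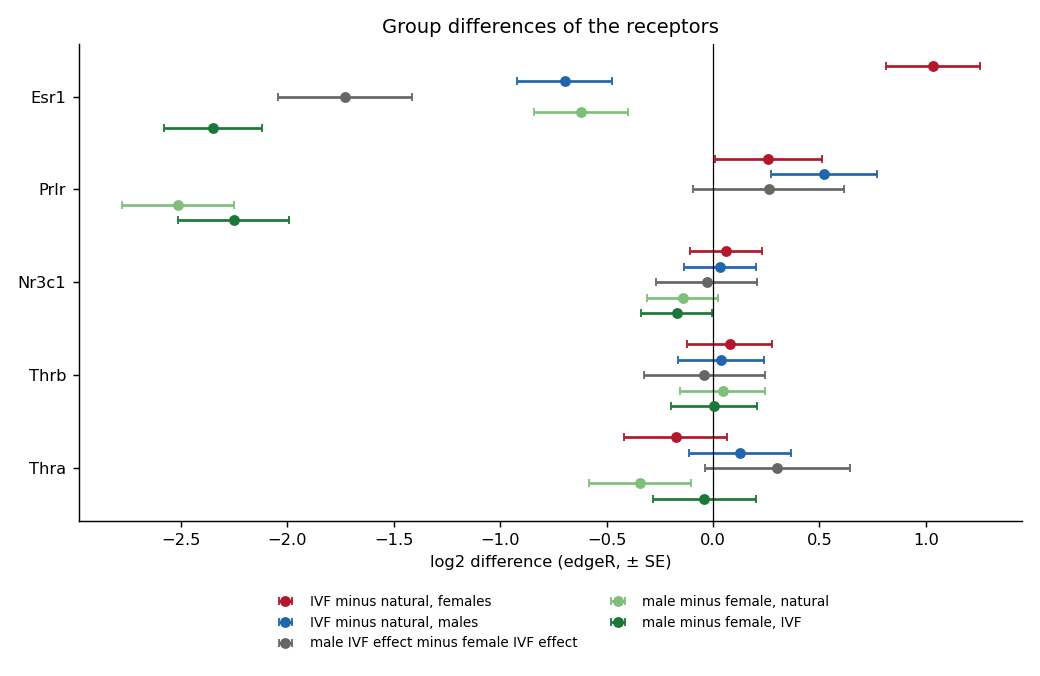
Log2 difference of each receptor in the 5 comparisons, with bars of 1 SE from the edgeR fit. Esr1 has points on both sides of 0 for IVF minus natural (1.03 in females, -0.70 in males), Prlr lies below -2 for both male minus female comparisons, and the other receptors lie within 0.35 of 0.

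Levels can be set against each other roughly once counts are divided by exon length. That length is the union of exons over all transcripts of a gene, and the annotation used in counting is not given. The order depends on it. In CPM without this division, Esr1 had a higher mean than Thra in every group, such as 34.2 against 14.2 in natural females and 13.8 against 12.2 in IVF males. In CPM per kilobase of exon, natural females had Prlr at 33.3, Nr3c1 at 20.4, Thrb at 7.60, Thra at 3.09 and Esr1 at 2.50. Thra and Esr1 overlapped there, and the other neighbours in that order did not. In IVF females the order was Prlr at 39.9, Nr3c1 at 21.3, Thrb at 8.03, Esr1 at 5.13 and Thra at 2.74, and no neighbours overlapped. Esr1 thus lay above Thra in every IVF female. Natural males had Nr3c1 at 18.5, Thrb at 7.84, Prlr at 5.84, Thra at 2.43 and Esr1 at 1.63. Thrb overlapped with Prlr, and Thra with Esr1. IVF males had Nr3c1 at 18.9, Prlr at 8.39, Thrb at 8.05, Thra at 2.65 and Esr1 at 1.01. Here Prlr and Thrb overlapped, while Esr1 was the lowest receptor per kilobase in all 3 libraries. Thrb exceeded Thra per kilobase by 2 to 5.69 times in single libraries, the highest in natural male replicate 1.

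**Figure D3:**
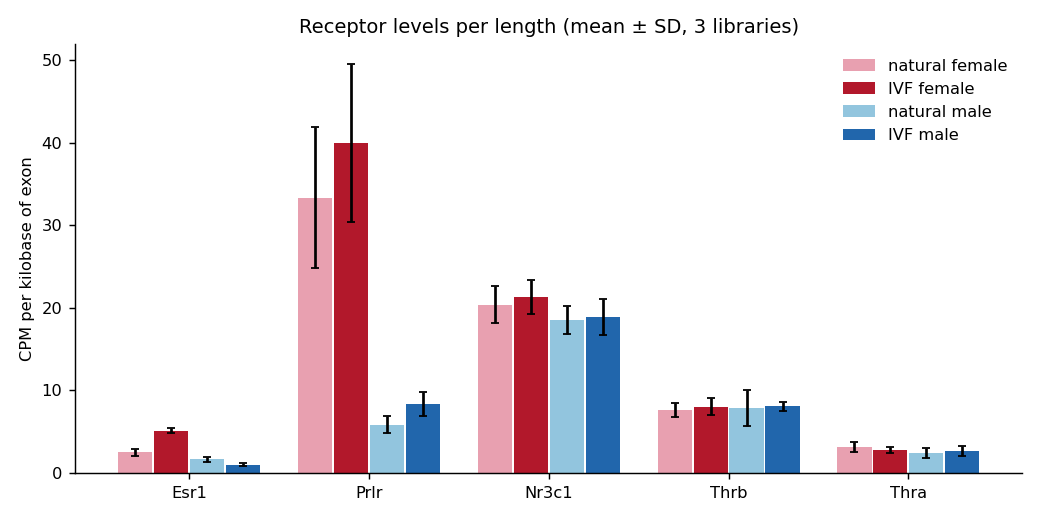
Receptor levels in CPM per kilobase of exon, as the mean of 3 libraries with its SD, for the 4 groups. Prlr heads the order in females (33.3 and 39.9) and Nr3c1 heads it in males (18.5 and 18.9).

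Among the other steroid receptors, 6 of 9 passed the filter on low counts and 0 were called (an adjusted p under 0.05 in edgeR's test) in any of the 5 comparisons. The mineralocorticoid receptor Nr3c2 had means of 9.29 to 14.8 CPM. Paqr7, a membrane progestin receptor, had 28.2 ± 13.5 CPM in natural females and 73.4 ± 8.21 CPM in natural males, a log2 difference of 1.37 with an adjusted p of 0.208 in the same edgeR test. Estrogen receptor beta (Esr2) had 0 to 2 counts per library and the progesterone receptor (Pgr) 0 to 6. Esr1 was therefore the nuclear estrogen receptor with counts above a few per library.

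The estrogen-related orphan receptors resemble Esr1 in sequence but do not bind estrogen. All 3 passed the filter and 0 were called. Esrrg had 16 ± 2.2 CPM in IVF females, 10.6 ± 2.19 in natural females, 7.13 ± 0.283 in IVF males and 7.07 ± 3.29 in natural males. Its IVF females lay above its natural females, with a log2 difference of 0.60 ± 0.29 (SE) and an adjusted p of 1 in edgeR's test. Esrra had 28 ± 3.43 CPM in IVF males and 16.7 ± 4.04 CPM in IVF females, with a log2 difference of 0.74 and an adjusted p of 0.15 in edgeR's test.

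Of 23 other peptide hormone and cytokine receptors, 17 passed the filter. By edgeR's test 0 were called for IVF in either sex or for the difference between the sexes, and Sstr2, a somatostatin receptor, was higher in males than in females in natural as in IVF animals. Among all genes 0%, 0.00757% and 0% were called in the first 3 comparisons, and 1.77% and 2.19% in the sex comparisons of natural and IVF animals. Sstr2 had 0 counts in all 3 IVF females. Its level in IVF males, 0.61 ± 0.103 CPM, was 10.9-fold that of a floor of 3 counts over the group (adjusted p 0.0287 in edgeR). The lower limit of the 95% counting interval of the ratio was 8.35. In natural animals its adjusted p was 0.0317 in edgeR. The natural Sstr2 call was lost in 10 of 20 alternative settings and the IVF call in 7 of 20, mostly when a single library was left out. The adjusted p rose to as much as 0.113 in natural and 0.103 in IVF animals.

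Ghr, the growth hormone receptor and a relative of Prlr, had 477 ± 49.1 CPM in natural females, 623 ± 72.9 in IVF females, 704 ± 161 in natural males and 760 ± 102 in IVF males. It was not called, with adjusted p-values of 0.229 to 1 in edgeR over the 5 comparisons. Within a library, counts of Prlr over those of Ghr were 0.866 to 1.24 in females and 0.0922 to 0.218 in males. Lepr, the leptin receptor, had 12.4 ± 8.33 CPM in natural females and 2.61 ± 1.47 CPM in natural males, with an adjusted p of 0.0969 in edgeR. Avpr1a, a vasopressin receptor, had 49.1 ± 8.49 CPM in IVF females and 24 ± 5.68 CPM in IVF males, with an adjusted p of 0.296 in edgeR.

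Downstream of Prlr, 16 of 17 genes of its signalling passed the filter and 0 were called in any comparison by edgeR. The median log2 difference of the list, male minus female, was -0.23 in IVF animals, beside 0.01 over all genes. In natural animals its sign turned with the setting, from -0.12, beside -0.02 over all genes, to 0.10 with no filter on low counts and 0.19 without natural male replicate 1. Jak2, the kinase bound to the receptor, had group means of 23.7 to 29.5 CPM. Stat5a was lower in natural males than in natural females, at 11.9 ± 1.29 against 19.3 ± 4.02 CPM, with an adjusted p of 0.178 in edgeR, and is named here after its values were seen. Cish, a feedback inhibitor induced by STAT5, had 8.90 to 15.8 CPM in the 6 females and 0.755 to 27.4 CPM in the 6 males. Single males were thus far above and far below all females. Socs2, another such inhibitor, had 43.3 ± 18.2 CPM in natural females and 12.4 ± 3.4 CPM in natural males, with an adjusted p of 0.224 in edgeR. Socs7 had 10.4 ± 2.3 CPM in IVF females and 20.1 ± 4.11 CPM in IVF males, with an adjusted p of 0.0973 in edgeR.

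Of 17 genes listed as estrogen responsive in other tissues or in liver, 11 passed the filter. Greb1, the standard target in breast cells, had 0 to 1 counts in every library. By edgeR 0 were called for IVF in either sex or between the sexes. In IVF males against IVF females 2 fell, where 1.28% of all fitted genes were called lower. The first was Sult1e1, the sulfotransferase that inactivates estrogen. It had 3.86, 2.95 and 14.0 CPM in IVF females and 0.16, 2.28 and 0.637 CPM in natural females. Natural males had 0.411, 0.25 and 1.5 CPM, and IVF males 0.0687, 0.0984 and 0 CPM, from 0 to 2 counts. Sult1e1 was thus, like Esr1, highest in IVF females and lowest in IVF males, with no overlap in either sex between IVF and natural animals. The separation in each sex was present under TMM, DESeq2's size factors and library size alone. Summed counts gave a natural male level 14.2 times (95% counting interval 4.58 to 70.8) and an IVF female level 143 times (48.6 to 697) that of IVF males. Single libraries carried most of these counts. Natural male replicate 3 held 38 of 52 and IVF female replicate 3 held 327 of 424, and without them the ratios were 6.11 and 57.6. Against IVF females the adjusted p in edgeR was 0.0147, which rose to as much as 0.084 when a single IVF male was left out. For IVF the adjusted p was 1 in each sex and for the difference between the sexes.

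The second was Cyp17a1, a steroid hydroxylase and lyase. It had 27.8 ± 11.7 CPM in IVF females, 31.8 ± 19.4 in natural females, 1.76 ± 0.57 in IVF males and 3.26 ± 3.62 in natural males. The log2 difference, male minus female, was -3.97 ± 0.80 (SE) with an adjusted p of 0.0241 in IVF animals and -3.28 ± 0.76 (SE) with 0.0555 in natural animals, both in edgeR. The IVF call was lost without IVF female replicate 2 or 3 or without any single IVF male, with adjusted p up to 0.109. The median of the list for IVF in males was -0.27, beside 0.01 over all genes. In females its sign rested on single libraries: it was 0.08, beside -0.01 over all genes, and became -0.17 without IVF female replicate 2 or 3, -0.11 without natural female replicate 2 and 0.29 without IVF female replicate 1.

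Enzymes that make, clear or interconvert steroid hormones numbered 17, of which 14 passed the filter. By edgeR 0 were called for IVF, 1 rose in natural males against females, and in IVF animals 1 rose and 2 fell. Hsd3b5, a steroid dehydrogenase known as male-specific, had 1.48 ± 1.09 CPM in natural females, 10.3 ± 9.25 in IVF females, 212 ± 15 in natural males and 241 ± 7.37 in IVF males. Its adjusted p was 0.000987 in natural and 0.00759 in IVF animals by edgeR. It has near-identical copies, among which its reads may have been divided, so its identity is uncertain. Akr1d1, which reduces bile acid precursors and steroid hormones, fell from 350 ± 92.3 CPM in IVF females to 123 ± 58.5 CPM in IVF males, a log2 difference of -1.51 ± 0.31 (SE), with an adjusted p of 0.0284 in edgeR. The call was lost when any 1 of 5 libraries was left out, with adjusted p up to 0.144. Sult1e1, described above, was the other gene that fell.

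**Figure D4:**
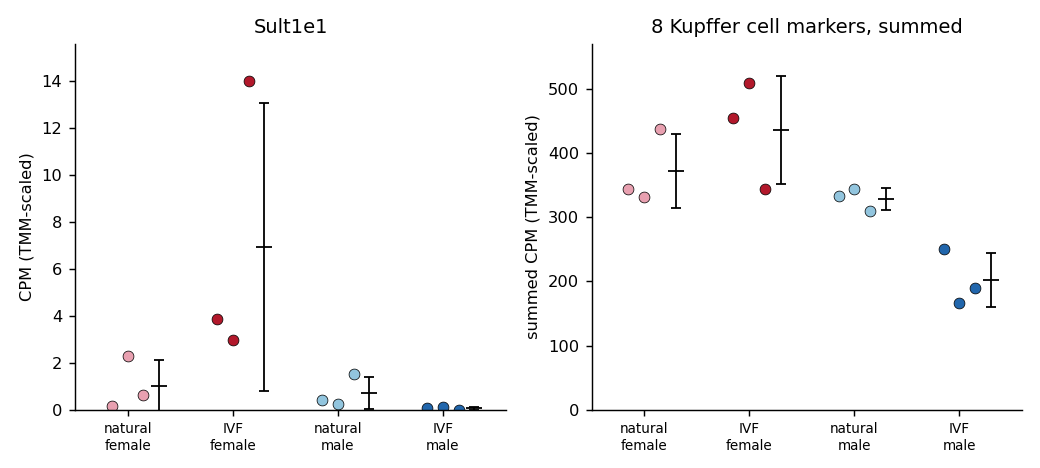
Sult1e1 and the sum of 8 Kupffer cell markers in each library, in CPM scaled by TMM, with the mean and SD of 3 libraries. SD bars that would reach below 0 end at 0. Sult1e1 is highest in IVF females (2.95 to 14.0 CPM) and at most 0.0984 CPM in IVF males, and the marker sum is lowest in IVF males (167 to 250 CPM).

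Markers of Kupffer cells, the resident macrophages of the liver, had summed medians in the same order of groups as Esr1, and so did those of 4 other cell types. The medians in IVF females, natural females, natural males and IVF males were 454, 344, 332 and 190 CPM for Kupffer cells. For stellate cells they were 611, 522, 411 and 368 CPM, and for sinusoidal endothelial cells 279, 268, 259 and 219 CPM. The sums of hepatocyte and of T, B and NK cell markers had this order too. The T, B and NK cell sums were only 2.41 to 8.27 CPM, and all groups overlapped. Most of the 7 fitted T, B and NK cell genes went against the order for IVF minus natural. In females 6 were negative, with a median of -0.32, and in males 4 were positive, with a median of 0.15. All 8 Kupffer cell markers passed the filter and none was at the floor in any group. Their summed level was 344 to 508 CPM in IVF females and 332 to 437 CPM in natural females. IVF males had 167 to 250 CPM and natural males 309 to 343 CPM. In IVF males 8 of 8 had a negative log2 difference from natural males, with a median of -0.71, and 6 of 8 did not overlap. Among all fitted genes 4.07% were lower in IVF males without overlap, and the median was 0.01. The median of the Kupffer cell markers was 0.22 in females. By edgeR 0 of these were called for IVF. Clec4f and Vsig4 were called between IVF males and IVF females, with log2 differences of -1.05 (adjusted p 0.0215) and -1.81 (adjusted p 0.0039). In that comparison 1.28% of all fitted genes were called lower in males. Summed hepatocyte markers were also lowest in IVF males, at 82346 to 92049 CPM against 99365 to 107600 in natural males. The part of cell makeup in the Esr1 differences was not tested.

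The glucocorticoid response genes can be set beside the even level of Nr3c1. Of 25 listed, 24 passed the filter and 0 were called in any comparison by edgeR. In males 20 of 24 had a negative difference, IVF minus natural, with a median of -0.42, and in natural animals 18 of 24 were higher in males, with a median of 0.63. Both patterns rested on natural male replicate 1. Without it 7 of 24 were negative in males, with a median of 0.31, and 11 of 24 were higher in natural males, with a median of -0.25. That library had 147 CPM of Fkbp5, a receptor chaperone induced by glucocorticoids, where the other natural males had 36.2 and 53.6 CPM. It also had 6071 CPM of the gluconeogenic gene Pck1, against 966.1 and 1652 CPM. Pck1 is named after its values were seen. Its Nr3c1, at 157 CPM, lay inside the range of the other groups.

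In females 17 of 24 glucocorticoid response genes had a negative difference, IVF minus natural, with a median of -0.26, beside -0.01 over all genes. Without natural female replicate 3 it was 12 of 24, with a median of -0.0018. Per1, a clock gene that glucocorticoids induce, lay the other way. It had 29.7, 28.8 and 19.7 CPM in IVF females and 3.13, 4.55 and 13.6 CPM in natural females. These groups did not overlap, and the log2 difference of 1.87 ± 0.64 (SE) had an adjusted p of 1 in edgeR's test. Mt2, a metallothionein, had 32.8 ± 16.4 CPM in IVF males and 171 ± 70.4 CPM in natural males, which did not overlap, with a log2 difference of -2.38 and an adjusted p of 1 in edgeR. Fkbp5 had 68.8 ± 4.71 CPM in IVF females and 98.4 ± 32.5 in natural females, with an adjusted p of 1 in edgeR. The time of day at collection is not in the labels.

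Hsd11b1 encodes the enzyme that regenerates active glucocorticoid from its inactive form inside hepatocytes. Its level followed that of Nr3c1 from library to library. Group means were 674 ± 83.6 CPM in natural females, 674 ± 69.9 in IVF females, 586 ± 66.8 in natural males and 572 ± 78.8 in IVF males. Counts of Nr3c1 were 0.218 to 0.261 times those of Hsd11b1 in all 12 libraries. Among the 9090 genes that averaged 5 CPM or more, Hsd11b1 had the pattern most like that of Nr3c1, with a Pearson r of 0.92 and a Spearman rho of 0.90 over the 12 libraries. Without the 2 libraries farthest from the median r was 0.85, and after subtracting group means it was 0.92. The pair was singled out as the best of all these genes, so the values are descriptions.

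**Figure D5:**
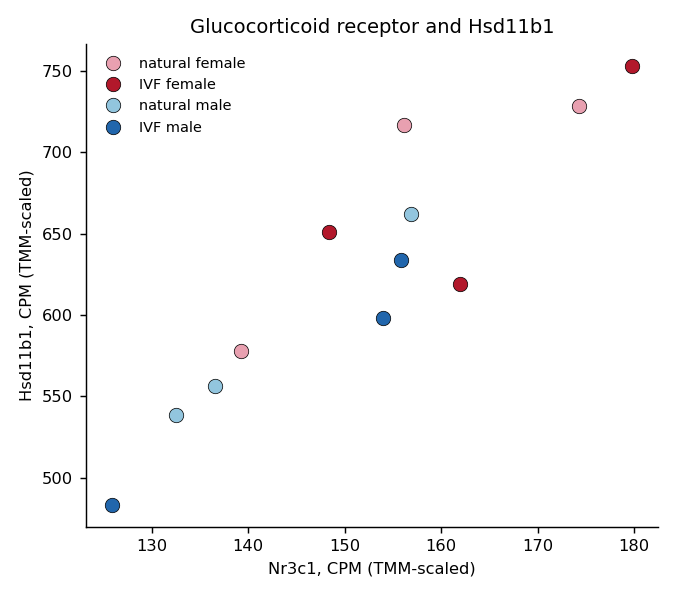
Hsd11b1 against Nr3c1 in the 12 libraries, both in CPM scaled by TMM, coloured by group; neither axis starts at 0. Points of all groups lie along a common line, from 126 and 483 CPM in IVF male replicate 1 to 180 and 753 CPM in IVF female replicate 2.

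Thyroid hormone response genes numbered 22, of which 20 passed the filter. Of all fitted genes 0.879% and 1.28% were called lower in natural and IVF males than in females. By edgeR 0 of the list were called for IVF and 1 fell in males in each mode of conception. This was Rcan2, a calcineurin inhibitor, with 33.4 ± 26.4 CPM in natural females, 33.6 ± 11.6 in IVF females, 2.06 ± 0.421 in natural males and 4.15 ± 1.34 in IVF males. Its log2 differences, male minus female, were -4.01 ± 0.54 (SE, adjusted p 0.00204) in natural and -3.01 ± 0.51 (SE, adjusted p 0.00883) in IVF animals, both in edgeR. Without natural female replicate 2 the first was -3.14, and the IVF call was lost without IVF male replicate 1 or 2, with an adjusted p of up to 0.0519 in edgeR. Dio1, the liver deiodinase that thyroid hormone induces, ranged from 4.89 to 140 CPM over the 12 libraries, or 28.7-fold, and was not called. Dio1 varied within each group while Thrb spanned 1.56-fold. Thrsp, a lipogenic gene, had 42.3 ± 46.9 CPM in natural females and 292 ± 162 CPM in natural males, with an adjusted p of 0.175 in edgeR.

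Thyroid hormone enters the liver through transporters, and 16 of 18 genes of its supply passed the filter. One was called by edgeR. Slco1a4, an organic anion and thyroid hormone transporter, fell from 158 ± 57.8 CPM in IVF females to 22.2 ± 19.5 CPM in IVF males, a log2 difference of -2.84 ± 0.59 (SE), with an adjusted p of 0.0276, lost when any 1 of 4 libraries was left out. Its relative Slco1a1 lay the other way, at 859 ± 331 CPM in IVF males and 108 ± 98 CPM in IVF females, with an adjusted p of 0.0954 in edgeR. Of 4 steroid carriers 3 passed. Serpina6, the carrier of glucocorticoids in blood, fell from 546 ± 195 CPM in IVF females to 209 ± 26.5 CPM in IVF males, a log2 difference of -1.38 ± 0.29 (SE), with an adjusted p of 0.0281 in edgeR and 0.0638 without the libraries of smallest total. Alb did not overlap in that comparison, with a log2 difference of -0.65 and an adjusted p of 0.23 in edgeR.

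Proteins that work with the nuclear receptors showed 0 calls by edgeR in all 5 comparisons: 0 of 6 receptor partners, 0 of 12 coactivators, 0 of 9 corepressors and 0 of 11 chaperones, all of which passed the filter. Their medians for IVF lay between -0.15 and 0.09 in log2. Foxa3, a pioneer factor of the liver, had 81 ± 12.9 CPM in natural males and 31.7 ± 9.02 CPM in natural females, with an adjusted p of 0.0751 in edgeR. Rxrb had 26.5 ± 1.75 CPM in IVF males and 19.1 ± 8.57 in IVF females, with an adjusted p of 0.631. The coactivator Ppargc1a had 5.79 ± 3.85 CPM in IVF males and 19.7 ± 10.4 in IVF females, with an adjusted p of 0.146, both in edgeR. The coactivator Ncoa6 had a log2 difference, natural males minus natural females, of -0.52, and the corepressors Gps2 and Nrip1 of -1.04 and -0.55, with adjusted p-values of 0.483, 0.303 and 0.342 in edgeR. The chaperone Dnajb1 had 52.4 ± 11.3 CPM in natural males and 23.3 ± 12.6 in natural females, with an adjusted p of 0.116 in edgeR.

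Genes whose pattern over the 12 libraries was most like that of each receptor were found among the same 9090 genes, by Pearson's r of log2 CPM. The points share library and group, so that r over all libraries of Esr1 and Prlr reflects mainly sex and conception. For Esr1 the closest were Atp6v0d2 (r 0.95), Cap1 (0.94), Cybb (0.94) and Nipal1 (0.93). Atp6v0d2, a proton pump subunit, had 49.8 ± 17.4 CPM in IVF females, 14.7 ± 4.71 in natural females, 0.778 ± 0.46 in IVF males and 4.04 ± 3.06 in natural males. Cybb, a subunit of the phagocyte oxidase, had 30.3 ± 5.13, 23.1 ± 2.47, 12.1 ± 2.57 and 16.5 ± 0.60 CPM in these groups. Both shared the order of Esr1: highest in IVF females, then natural females, natural males and IVF males. After subtracting group means the closest to Esr1 were instead Trp53i11, Tmem9, Litaf and Jup, at r of 0.94 to 0.96.

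For Prlr the closest were Rcan2, Naip2, Sult2a5 and Slc22a26, all at an r of 0.97. Slc22a26, an organic anion transporter, had 193 to 393 CPM in females and at most 0.755 CPM in males. Within groups the closest to Prlr were Abcg3, Fyb, Meis2 and Lcp2. For Nr3c1, Plpp6, Kdr and Zfp704 followed Hsd11b1 at 0.82, 0.82 and 0.81, and within groups Ino80d led at 0.98, followed by Socs7, 1700017B05Rik and Hsd11b1. For Thrb they were Ip6k2 (0.87), Foxo1 and Gab1, and within groups Colec10 (0.92), Pnrc1, Kansl1 and Rpp21. For Thra they were Myh14 (0.88), Zfp777, Rab12 and Lyrm2, and within groups Fetub (0.94), Myh14, Lrtm1 and Smo.

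Among the receptors themselves, Esr1 and Prlr had the highest r of the 10 pairs over all libraries, at 0.78. After subtracting group means it was -0.28. Prlr and Nr3c1 had 0.41 over all libraries and -0.70 within groups, and Thrb and Thra -0.50 and -0.56. These pairs were picked from the 10 after their values were seen.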

How the data were processed

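The values used were whole-number read counts per gene symbol for 12 liver libraries, as deposited by the authors in 1 table. TRIzol extraction, KAPA poly-A library preparation and Illumina NextSeq sequencing are given per the labels' protocols. Trimmomatic 0.32, STAR 2.3.0e, featureCounts 1.5.0 and the build mm10 are named in the submitters' processing notes. Annotation, use of strand and treatment of multi-mapping reads are not given in the sources used here. Columns carry the sample titles. Replicates were numbered in accession order and pair no samples.

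edgeR 4.0.16 (R 4.3.3) was run with filterByExpr, TMM and 1 model with a mean per group over 12 libraries, and its quasi-likelihood test. Genes were called at a Benjamini-Hochberg adjusted p under 0.05 over 13204 genes. Standard errors are the log2 difference over the root of F. Levels per kilobase use the union of exons in GENCODE M21. The code was tested on simulated data. Alternatives were DESeq2 1.42.0, limma voom (limma 3.58.1), other scalings and filters, other sets of samples, and a term for 2 libraries added after the data were seen, as were list counts under these alternatives.

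The receptors and lists were chosen with earlier results of these data known. From each list were named the called genes, the 2 largest differences without overlap at 5 CPM or more, and fixed genes that include Nr1d1, Pgr, Esr2, Nr3c2, Ghr, Hsd11b1, Dio1, Greb1, Cish and Fkbp5. For likeness the 4 closest genes per receptor and pattern were named, with log2 CPM at a prior count of 2. Results of some genes that these rules name are not reported here.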

Additional observations from a re-analysis of the deposited data

Results flagged for a closer look

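The IVF difference of Esr1 went opposite ways in the sexes. Every IVF female lay above every natural female and every IVF male below every natural male. The IVF difference in males minus that in females was -1.73 on the log2 scale. This difference was not tested here, since Esr1 was chosen for it. By library size alone the male groups overlapped.

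Sult1e1, the sulfotransferase that inactivates estrogen, showed the same separation. Its IVF difference in males minus that in females was -6.60 ± 1.62 (SE) on the log2 scale. This fitted value depends on the prior count, since IVF males had 0 to 2 counts, and its adjusted p was 1 in edgeR's test over all genes. The separation was present under TMM, DESeq2's size factors and library size alone.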

How the results depend on the processing

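Counts of called genes moved by more than 1.5 times under some settings, all at a Benjamini-Hochberg adjusted p. For IVF in females edgeR called 0 genes (488 at an unadjusted p under 0.05) and DESeq2 4. In males edgeR called 1, DESeq2 5 and limma voom 0, and leaving out single libraries gave 0 to 1, with 0 without natural male replicate 2 or 3. For the difference between the sexes edgeR called 0 (511 unadjusted) and DESeq2 9. For sex in natural animals the 234 genes became 442 at an adjusted p under 0.1, 510 by library size alone, 678 in DESeq2, 139 with only the libraries compared, 458 with a term for the libraries of smallest total, and 111 to 263 when 1 library was left out. For sex in IVF animals the 289 became 495 at 0.1, 721 in DESeq2, 438 with that term, and 137 to 348 when 1 library was left out. By library size alone the split was 88 higher and 422 lower in natural males, against 118 and 116, and 92 higher and 221 lower in IVF males, against 120 and 169, while the median of all genes moved to -0.34 and -0.10. The cause was not tested.

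Of 520 alternative values of the 5 receptors' log2 differences, 511 moved by less than 1 SD within groups and 9 moved by more. Some of these values left out a library of a group not compared, which could hardly move them. A reversal was counted only where the main difference exceeded 1 SD within groups, and 0 were found. Smaller differences did change sign, such as that of Thrb between IVF males and IVF females in 9 settings. Leaving out 1 library kept Esr1 between 0.90 and 1.12 in females, -0.86 and -0.54 in males, and -1.89 and -1.57 for the difference between the sexes. Signs of Nr3c1, Thrb and Thra are not read. On the TMM scale the 95% intervals of all their differences include 0, as do those of Prlr for IVF in females and for the difference between the sexes. The intervals are descriptions and not tests, since the receptors were chosen with their values known. No paired analysis was possible because the titles carry no replicate numbers, and those used follow accession order. IVF female replicate 1 and IVF male replicate 2 share a number stem in their titles whose meaning the labels do not give, and no other pair does. The smallest libraries limit genes near the floor, such as Sult1e1 and Sstr2, more than the receptors, which had at least 98 counts.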
